A study of Homo sapiens with 12 samples.

Results

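The 55 genes described here encode the proteins that copy DNA in S phase, from the origin recognition complex to chromatin assembly behind the fork. They were taken as a named list, which was chosen with earlier results of these data known. A gene entered when at least 2 of the 12 libraries held 10 or more normalized counts. All 55 met that rule, of 27106 genes in the table and 13924 genes tested. In 54 of them every library held 10 or more, the exception being POLE2 at 8.26 and 8.10 in shScr cells on day 10.

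The cells were IMR90 human lung fibroblasts carrying hTERT, the catalytic subunit of telomerase, and RasERT2, an oncogenic Ras fused to a tamoxifen-responsive receptor domain. Both genotypes carried a doxycycline-induced hairpin, a scramble sequence in the control cells (shScr) or one against the interleukin-1 receptor (shIL1R). Doxycycline was used at 0.5 ug/ml, and 200 nM tamoxifen or ethanol followed. The labels do not say which samples had ethanol, and they do not name the Ras isoform. Growing cells (day 0), cells on day 4 and senescent cells on day 10 of Ras induction were sequenced as poly(A) RNA, with 2 libraries for each genotype and day. The series text speaks of 2 independent hairpins against the receptor and of 2 replicates. Whether #1 and #2 are those hairpins is not given, and neither is whether replicates were separate cultures, so p-values measure only the spread between these samples.

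Replication starts in G1, when the origin recognition complex, CDC6 and CDT1 load the MCM2-7 helicase onto origins as an inactive double ring. In S phase the kinase CDC7 with DBF4, together with CDC45, the GINS complex and MCM10, turns the loaded ring into a moving helicase, and primase, the replicative polymerases, the PCNA clamp and its loader follow at the fork. Many of these genes are transcribed under the control of E2F factors, which the RB family holds in check in cells that have left the cell cycle, as in senescence, the lasting arrest that oncogenic Ras sets off in fibroblasts.

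Recovered reads ran from 24140324 to 30127727 per library. IL1R1, the receptor gene, stood at 1509 and 1552 normalized counts on day 0, 1546 and 1423 on day 4 and 1580.1 and 1239.6 on day 10 in shScr cells, and at 731 and 378, 272 and 86.4, and 295 and 279.9 in shIL1R cells on the same days. It was thus lower in each shIL1R library than in either shScr library of its day, although the difference did not pass the test on day 0 (limma adjusted p = 0.281). The 8 fibroblast markers tested, collagens and VIM among them, summed to 544514 to 804209 normalized counts, and they did not move alike. In shScr cells the day 10 mean was 59.0% of the day 0 mean for COL1A1, 48.9% for COL1A2 and 41.6% for COL3A1, but 305% for FN1 and 298% for FAP. Endothelial markers summed to 32.7 to 49.6 on day 0 and 359 to 706 on day 10 with CDH5 at 0 throughout. Leukocyte markers summed to 2845 to 3147 on day 0 and 5789 to 9063 on day 10, nearly all of it CD68, while CD3E and MS4A1 stood at 0. Of these lists 4 of 5 endothelial and 2 of 5 leukocyte genes passed the value rule, and none of 4 epithelial genes did (sum at most 10.8). Of 4 smooth muscle and neural genes 3 passed, and the list summed to 3798 to 6946, nearly all of it TUBB3. Whether those shifts bear on the replication genes was not tested.

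Nearly all 55 replication genes fell after Ras induction, in both genotypes. In shScr cells 54 of 55 were called lower on day 4 than on day 0, where 18.9% of all genes tested were called lower, and none was called higher. On day 10 all 55 were called lower, against 31.3% of all genes. The median log2 fold change of the 55 was −1.66 on day 4 and −2.92 on day 10, against a median of −0.01 and 0.01 over all genes tested. In shIL1R cells 54 of 55 were called lower on day 4 (20.3% of all genes) and all 55 on day 10 (30.3% of all genes), with medians of −1.37 and −2.45. The genes not called on day 4 were ORC5 in shScr cells and POLD2 in shIL1R cells. A gene was called when the limma p, adjusted after Benjamini and Hochberg over all 13924 genes, was below 0.05.

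Summed over the 55 genes, replication transcripts made up 0.384% and 0.387% of reads in the growing shScr libraries. The share was 0.124% and 0.130% on day 4 and 0.0598% and 0.0644% on day 10. In shIL1R cells it went from 0.360% and 0.388% to 0.138% and 0.149%, and then to 0.0634% and 0.0834%. RNA45S5, a ribosomal RNA precursor gene that poly(A) selection should largely remove, moved with the days, from 333532 to 364224 normalized counts over the 4 day 0 libraries to 723339 to 869211 over the 4 of day 10. On day 4 it stood at 494205 and 899054 in shScr and 473777 and 484739 in shIL1R cells. Its part in the shares was not tested. The median gene kept 13.2% of its day 0 level on day 10 in shScr cells and 19.1% in shIL1R cells. In these bulk libraries fewer cells in S phase and less RNA per cell cannot be told apart.

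**Figure D1:**
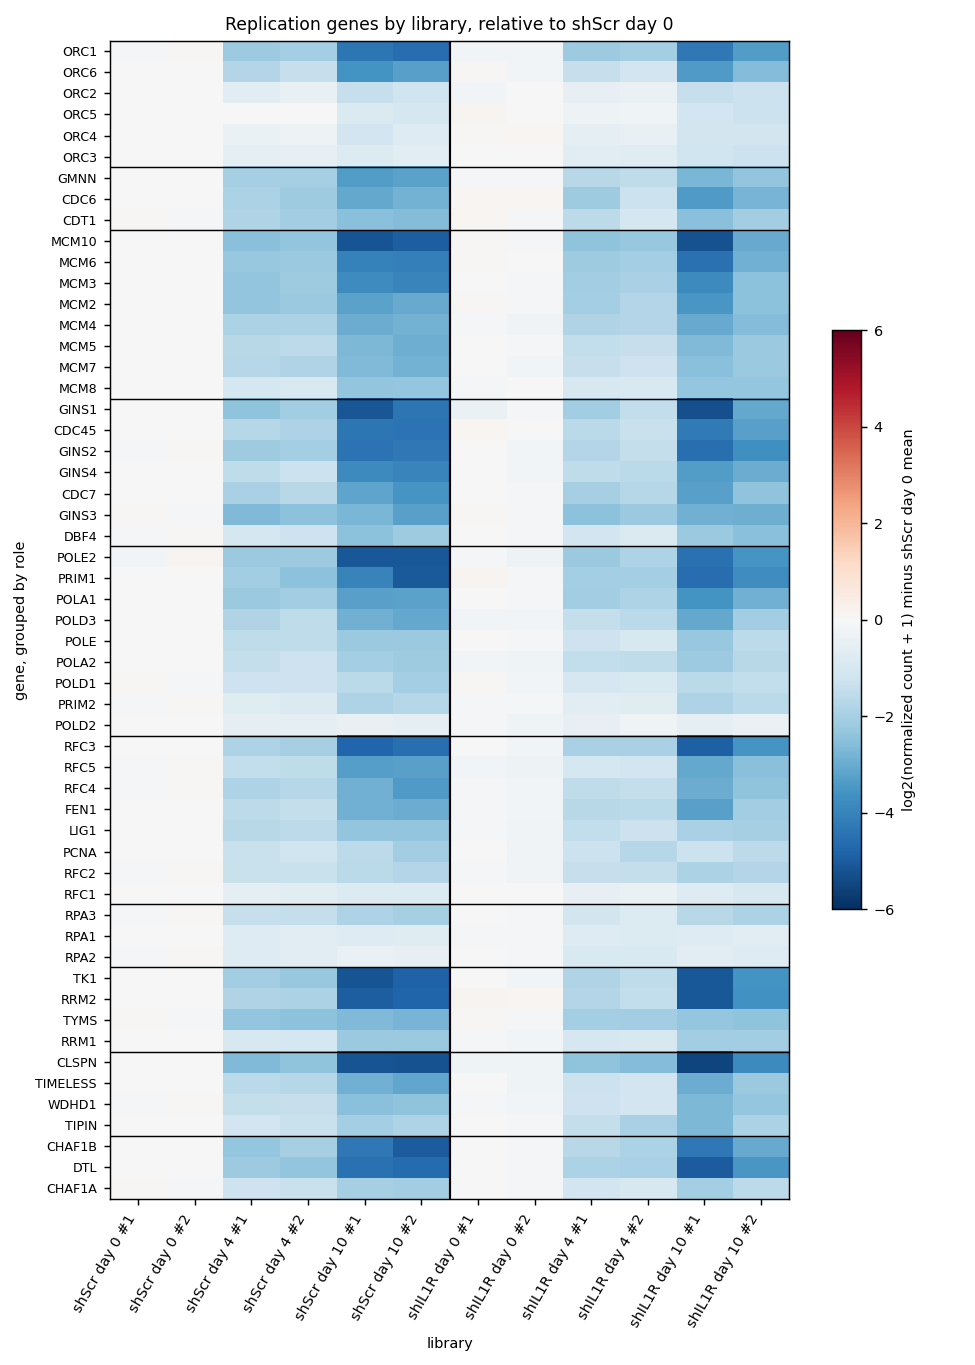
Each row is a replication gene, grouped by role and ordered within a role by its fall in shScr cells on day 10, and each column a library. Colour gives log2(normalized count + 1) minus the mean of the shScr day 0 libraries, so blue is lower. All 4 day 10 columns are dark for genes such as CLSPN, TK1 and RRM2, and pale for RPA1, RPA2 and POLD2.

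Because the genes moved together, their promoters were read from RefSeq on GRCh38.p14, as windows of 250 bases before and 50 after each start site. Of the 55 genes 49 had a window, 62 windows in all, and MCM4, MCM5, GINS4, POLD3, RPA2 and RPA3 had no entry. Both strands were searched for 4 forms of the E2F octamer, TTTCCCGC, TTTGGCGC, TTTCGCGC and TTTGCCGC, which can overlap each other on opposite strands. At least 1 form occurred in 24 of the 62 windows (38.7%), against 3.31% of all 35116 windows of the same length. The CCAAT box, the word CCAAT or ATTGG on the gene's strand, occurred in 35 of the 62 windows (56.5%), against 34.6% of all windows. The member windows were also richer in G and C, with a median of 64.8% against 58.7%. The next lines show 100 bases from the 6 genes that fell furthest among those with a match wholly before the start site. CLSPN, POLE2 and GINS1 fell further, but their matches reached or lay past it. Then come ORC3, which fell least among the genes with a match, and POLD2 and RPA1, which fell least among those without one. The bases end just before the start site, except in MCM6 (−172 to −73) and MCM3 (−194 to −95). A further MCM3 match at −4 is not shown. Capitals mark the octamer on either strand, and each line runs 5′ to 3′ on the gene's strand.
RFC3, chr13:33818049-33818148, strand +: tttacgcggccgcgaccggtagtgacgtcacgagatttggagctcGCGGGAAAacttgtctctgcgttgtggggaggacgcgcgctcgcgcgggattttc
DTL, chr1:212035648-212035747, strand +: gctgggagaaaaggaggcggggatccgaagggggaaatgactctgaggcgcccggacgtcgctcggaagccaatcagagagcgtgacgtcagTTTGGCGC
GINS2, chr16:85688955-85689054, strand −: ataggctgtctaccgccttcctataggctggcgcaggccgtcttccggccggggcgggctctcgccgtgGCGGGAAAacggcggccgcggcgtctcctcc
MCM6, chr2:135876516-135876615, strand −: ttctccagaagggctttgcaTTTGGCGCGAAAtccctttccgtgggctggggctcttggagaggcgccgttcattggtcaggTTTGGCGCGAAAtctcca
MCM3, chr6:52284837-52284936, strand −: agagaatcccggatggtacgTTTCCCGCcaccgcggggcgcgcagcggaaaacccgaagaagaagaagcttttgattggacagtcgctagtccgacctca
CDC7, chr1:91501012-91501111, strand +: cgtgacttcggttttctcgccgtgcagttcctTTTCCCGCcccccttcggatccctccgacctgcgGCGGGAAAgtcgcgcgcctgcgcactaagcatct
ORC3, chr6:87590035-87590134, strand +: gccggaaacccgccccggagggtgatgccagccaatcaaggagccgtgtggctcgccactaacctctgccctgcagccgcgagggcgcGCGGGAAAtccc
POLD2, chr7:44123549-44123648, strand −: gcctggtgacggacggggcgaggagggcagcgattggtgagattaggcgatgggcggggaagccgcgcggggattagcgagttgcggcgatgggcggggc
RPA1, chr17:1829905-1830004, strand +: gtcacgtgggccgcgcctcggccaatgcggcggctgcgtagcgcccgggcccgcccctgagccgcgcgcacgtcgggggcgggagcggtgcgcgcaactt

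In MCM6 the capitals hold 4 matches, since TTTGGCGC and the reverse complement of TTTCGCGC overlap at each of the pair of sites. Among genes with a match the log2 fold change in shScr cells on day 10 had a median of −3.06 and ran from −5.19 to −0.73 (24 genes). Among those without one the median was −2.45 and the range −5.06 to −0.50 (25 genes). The ranges overlapped, with ORC3 falling little despite a match and MCM10 falling far without one. A split by the CCAAT box went the same way, with a median of −3.25 with the box (30 genes) and −2.54 without it (19 genes). Neither split was tested. A match describes the letters of the window and says nothing on binding.

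The origin recognition complex marks the sites where replication can begin, and its 6 subunit genes fell by log2 values from −4.46 to −0.73 in shScr cells on day 10. ORC1, the subunit whose protein is made and destroyed in each cell cycle, and ORC6 fell furthest. ORC1 stood at 599.9 and 650.1 normalized counts on day 0, 139 and 150.5 on day 4 and 29.5 and 25.3 on day 10 in shScr cells, and at 556 and 552, 137 and 151, and 31.2 and 60.9 in shIL1R cells on those days. Its log2 fold change on day 10 was −4.46 ± 0.25 (SE; limma adjusted p = 1.00e-07) in shScr cells and −3.64 ± 0.25 in shIL1R cells. For ORC6 the values were −3.42 ± 0.23 and −2.99 ± 0.23. The core subunits ORC2, ORC3, ORC4 and ORC5 kept far more of their transcript, with log2 fold changes on day 10 in shScr cells of −1.29, −0.73, −0.97 and −0.98. ORC5 stood at 526 and 546 normalized counts on day 0, 531 and 522 on day 4 and 290.3 and 255 on day 10 in shScr cells, so the day 0 and day 4 libraries overlapped there (log2 fold change −0.03 ± 0.11) and a fall of −0.95 ± 0.11 was called between days 4 and 10. In shIL1R cells ORC5 was already lower on day 4 (−0.38 ± 0.11), a call lost without either shIL1R day 4 library or without replicate 1 of shIL1R on day 0 (limma adjusted p = 0.0568 to 0.146). The day 4 calls of ORC4 in shScr cells (−0.36 ± 0.13) and of ORC2 in shIL1R cells (−0.36 ± 0.11) were likewise lost when a single library was left out. For ORC4 this held for each of the 8 day 0 and day 4 libraries. The shIL1R libraries among them are not part of that comparison and left its fold change as it was. They entered only through the spread, which was estimated over all 12 libraries. Without a shScr library of those days the fold change ran from −0.41 to −0.32. For ORC2 it held for the 4 shIL1R libraries compared (limma adjusted p up to 0.167, without replicate 2 of day 0).

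CDC6 and CDT1 load the helicase, and geminin (GMNN) binds CDT1 to stop a second loading in the same cycle. All 3 lost most of their transcript by day 4. CDC6 had 1371 and 1358 normalized counts on day 0, 363 and 310.5 on day 4 and 159 and 190.4 on day 10 in shScr cells. CDT1 had 902 and 827 on day 0, 246 and 201 on day 4 and 151 and 144 on day 10 in the same cells. The log2 fold changes on day 4 were −2.02 ± 0.25 for CDC6, −1.95 ± 0.19 for CDT1 and −1.99 ± 0.13 for GMNN, and on day 10 −2.96, −2.54 and −3.28. In shIL1R cells the day 10 values were −3.21, −2.32 and −2.48.

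MCM2 to MCM7 form the ring of the replicative helicase, and each of the 6 fell in shScr cells, with 5.84% of the day 0 mean of MCM6 left on day 10. MCM2 went from 2224 and 2139 normalized counts on day 0 to 423 and 458 on day 4 and 234 and 265 on day 10. MCM6 went from 2018 and 2015 to 417 and 429 and then 119 and 116. MCM7 kept the largest share, from 7339 and 7302 to 2212 and 2087 and 1159 and 1038. In each of these 3 genes the libraries of the 3 days did not overlap. The log2 fold changes on day 10 were −3.13 for MCM2, −3.87 for MCM3, −2.91 for MCM4, −2.82 for MCM5, −4.09 for MCM6 and −2.74 for MCM7. The ring holds 1 copy of each subunit, and differences between the falls of their transcripts were not tested. MCM8, a relative that works in recombination, fell least of the family (−2.34 ± 0.09). MCM10, a scaffold that starts the helicase, fell furthest, from 758 and 747 to 20.1 and 23.3 normalized counts (log2 fold change −5.06 ± 0.49, limma adjusted p = 5.61e-06).

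In shIL1R cells the family fell by log2 values from −2.26 (MCM8) to −4.13 (MCM10) on day 10. The 2 shIL1R libraries of that day stood apart here, with MCM10 at 19.2 and 92.6 normalized counts in replicates 1 and 2, MCM6 at 88.7 and 269 and MCM3 at 249 and 629. The log2 fold change of MCM10 was −3.02 without replicate 1 and −5.23 without replicate 2 of that group. For MCM6 it was −2.93 without replicate 1 and −4.52 without replicate 2, and for MCM3 −2.42 without replicate 1 and −3.75 without replicate 2. Every one of these stayed below 0.05 in limma.

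The 7 genes that switch the helicase on fell by a median log2 value of −3.89 in shScr cells on day 10, against −3.02 for the MCM family. CDC45, which rides with the ring, stood at 767 and 799 normalized counts on day 0, 242 and 217 on day 4 and 37.8 and 35.4 on day 10 in shScr cells. GINS1 and GINS2, subunits of the 4-part GINS complex, went from 715 and 739 and from 878 and 952 normalized counts on day 0 to 20.1 and 35.4 and to 41.3 and 45.6 on day 10. The log2 fold changes on day 10 were −4.38 ± 0.25 for CDC45, −4.72 ± 0.54 for GINS1, −4.37 ± 0.23 for GINS2 and −3.89 ± 0.15 for GINS4. GINS3 had 363 and 328 normalized counts on day 0, 54.2 and 62.5 on day 4 and 50.7 and 35.4 on day 10, with most of its fall present on day 4. Its difference between days 4 and 10 was −0.45 ± 0.20 and did not pass the test (limma adjusted p = 0.0899). The kinase gene CDC7 and its activator DBF4 had log2 fold changes of −3.35 and −2.30 on day 10. With shIL1R the 7 genes fell by log2 values from −4.01 (GINS2) to −2.30 (DBF4). GINS1 rested on its libraries, at −2.83 without replicate 1 and −5.00 without replicate 2 of shIL1R on day 10. Its day 4 call in shScr cells was lost without replicate 1 of shScr on day 4 (log2 fold change −2.06). In shIL1R cells the day 4 call was lost without any of the 8 day 0 and day 4 libraries. Those of shScr did not move the fold change of −1.53 and entered only through the spread, estimated over all 12 libraries. Without a shIL1R library of those days it ran from −1.845 to −1.217.

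The 9 polymerase and primase genes had log2 fold changes from −5.09 (POLE2) to −0.50 (POLD2) in shScr cells on day 10. In polymerase epsilon, which copies the leading strand, the catalytic gene POLE went from 1903 and 1814 normalized counts on day 0 to 394 and 389.9 on day 10 in shScr cells. Its partner POLE2 went from 278 and 347 to 66.6 and 68.1 on day 4 and 8.26 and 8.10 on day 10. The log2 fold changes were −2.24 ± 0.18 and −5.09 ± 0.29, and the difference between them was not tested. In polymerase delta, which copies the lagging strand, the log2 fold changes were −2.97 for POLD3, −1.83 for POLD1 and −0.50 for POLD2.

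POLD2 stood at 3095 and 3112 normalized counts on day 0, 2112 and 2124 on day 4 and 2274 and 2121 on day 10 in shScr cells, with a difference between days 4 and 10 of 0.05 ± 0.10. In shIL1R cells it stood at 2874 and 2588, 2213 and 2554, and 2119.9 and 2378 on those days. The day 10 call there (−0.28 ± 0.10) was lost without replicate 1 of shIL1R on day 0 (limma adjusted p = 0.174) or on day 10 (limma adjusted p = 0.124). Of the polymerase alpha and primase genes, which lay down the first nucleotides, the primase catalytic gene PRIM1 fell furthest, from 349 and 372 to 21.2 and 10.1 (−4.52 ± 0.33), ahead of POLA1 (−3.23), POLA2 (−2.08) and PRIM2 (−1.79). With shIL1R the same 4 genes fell by log2 values of −4.18, −3.20, −1.69 and −1.64.

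PCNA, the sliding clamp that also serves DNA repair, fell less than most. Its values were 2270.1 and 2408 normalized counts on day 0, 922 and 1024 on day 4 and 781 and 549.9 on day 10 in shScr cells and 2299.8 and 2048, 963 and 714, and 956 and 789 in shIL1R cells, with log2 fold changes on day 10 of −1.83 ± 0.18 and −1.32 ± 0.18. In shIL1R cells the day 4 and day 10 libraries overlapped, and the difference did not pass the test (0.07 ± 0.18, limma adjusted p = 0.806). The clamp loader genes spread widely. RFC3 went from 862 and 917 normalized counts on day 0 through 243 and 225 to 31.9 and 37.5 in shScr cells, a log2 fold change of −4.65 ± 0.32 (limma adjusted p = 4.12e-07). RFC1, the large subunit, went from 1962 and 1976 to 1119.9 and 1115 (−0.82 ± 0.09). Between them lay RFC5 (−3.28), RFC4 (−3.15) and RFC2 (−1.68). FEN1, which trims flaps of Okazaki fragments, and LIG1, which seals them, had log2 fold changes of −2.92 and −2.36. With shIL1R the day 10 log2 fold change was −4.11 for RFC3 (−3.43 without replicate 1 and −4.79 without replicate 2 of shIL1R on day 10) and −2.51 for FEN1 (−1.92 without replicate 1 and −3.10 without replicate 2). RFC1, RFC2, RFC4, RFC5 and LIG1 stood at −0.86, −1.66, −2.58, −2.57 and −1.83 there.

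The 3 genes of replication protein A, which coats single strands in replication and in repair, had a median log2 fold change of −0.75 in shScr cells on day 10, the smallest of the groups described here. RPA1 stood at 3007 and 2986 normalized counts on day 0, 1773 and 1879.7 on day 4 and 1763 and 1793 on day 10 in shScr cells. RPA2 stood at 1181 and 1315 on day 0, 732 and 778 on day 4 and 938 and 893 on day 10, lowest in the middle. Its log2 fold change was −0.72 ± 0.09 on day 4 and −0.44 ± 0.09 on day 10. The rise from day 4 to day 10 was 0.28 ± 0.09 (limma adjusted p = 0.0311) and was lost when any of the 4 libraries compared was left out (limma adjusted p = 0.0635 to 0.156). RPA3 had a log2 fold change of −1.93 on day 10. With shIL1R the day 10 log2 fold changes were −0.63 for RPA1, −0.65 for RPA2 and −1.73 for RPA3.

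**Figure D2:**
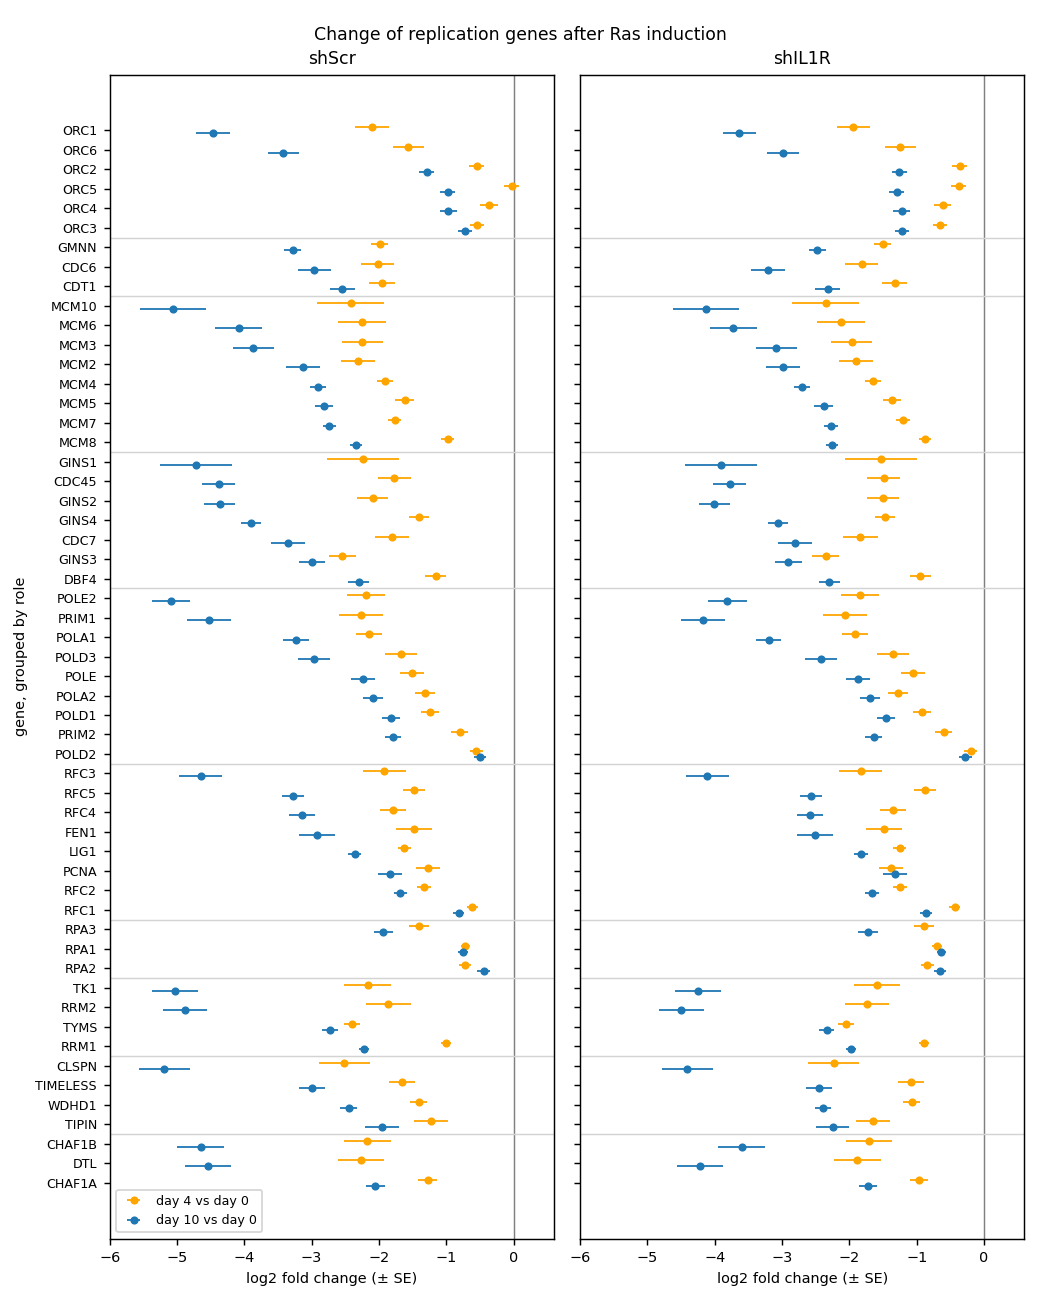
Points give the log2 fold change of each replication gene from day 0 and bars its SE from the limma fit, on day 4 (orange) and day 10 (blue), in shScr (left) and shIL1R cells (right). All day 10 points lie left of 0, from −5.19 (CLSPN) to −0.44 (RPA2) in shScr cells.

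The 4 genes of deoxynucleotide supply had a median log2 fold change of −3.80 in shScr cells on day 10. RRM2, the S-phase small subunit of ribonucleotide reductase, had 9285 and 9294 normalized counts on day 0, 2647 and 2476 on day 4 and 296 and 335 on day 10 in shScr cells, and TK1, the cytosolic thymidine kinase, had 4367 and 4171 on day 0, 1012 and 888 on day 4 and 117 and 145 on day 10. Their log2 fold changes on day 10 were −4.88 ± 0.33 (limma adjusted p = 3.54e-07) and −5.03 ± 0.34 (limma adjusted p = 3.83e-07). RRM1, the large subunit, had one of −2.22. TYMS, which makes thymidylate, had 1282 and 1163 normalized counts on day 0, 239 and 221 on day 4 and 194 and 175 on day 10, so most of its loss was present on day 4 (−2.40 ± 0.12) and it had reached −2.72 on day 10. With shIL1R the day 10 values were −4.50 for RRM2 (−3.76 without replicate 1 and −5.23 without replicate 2 of shIL1R on day 10) and −4.25 for TK1 (−3.50 without replicate 1 and −4.99 without replicate 2). For RRM1 and TYMS they were −1.98 and −2.34.

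Of the genes that protect the fork, CLSPN, the claspin mediator of the ATR checkpoint, had the lowest log2 fold change of the 55 in shScr cells on day 10. By the share of the day 0 mean left, POLE2 (2.62%) stood just below CLSPN (2.68%) there, and in shIL1R cells RRM2 had the lowest log2 fold change (−4.50, 5.01% left against 5.47% for CLSPN). CLSPN stood at 1689.5 and 1691 normalized counts on day 0, 271 and 319 on day 4 and 46.0 and 44.6 on day 10 in shScr cells and at 1398 and 1406, 319 and 278, and 36.0 and 117 in shIL1R cells. The log2 fold change on day 10 was −5.19 ± 0.38 in shScr cells (limma adjusted p = 6.37e-07) and −4.41 ± 0.38 in shIL1R cells (−3.57 without replicate 1 and −5.25 without replicate 2 of shIL1R on day 10). TIMELESS and TIPIN, which form a heterodimer at the fork, had log2 fold changes of −2.99 and −1.95 in shScr cells, and WDHD1, which ties polymerase alpha to the helicase, one of −2.45. Of the chromatin assembly factor, CHAF1B went from 765 and 795 to 38.9 and 23.3 normalized counts and CHAF1A from 1607 and 1503 to 387 and 362, log2 fold changes of −4.65 ± 0.34 and −2.05 ± 0.14. DTL, the adaptor that sends CDT1 for destruction in S phase, had one of −4.54 ± 0.34. With shIL1R the values were −2.45 for TIMELESS, −2.25 for TIPIN, −2.39 for WDHD1 and −1.72 for CHAF1A. For CHAF1B the value was −3.60 (−2.97 without replicate 1 and −4.23 without replicate 2) and for DTL −4.22 (−3.45 without replicate 1 and −4.98 without replicate 2), leaving out libraries of shIL1R on day 10.

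Fall by day 4 and fall between days 4 and 10 varied from gene to gene. In shScr cells 49 of 55 were called lower and 1 (RPA2) higher on day 10 than on day 4, against 22.4% and 21.7% of all genes tested. In shIL1R cells 49 were called lower and 0 higher, against 18.3% and 17.6%. The log2 change on day 4 was 56.5% of that on day 10 for the median gene in shScr cells and 53.4% in shIL1R cells, both steps being measured from the same day 0 libraries. The share was above 50% for 34 of the 55 genes in each genotype. In shScr cells it was above 100% for RPA2 and POLD2, whose mean log2 level on day 4 lay below that on day 10 (a difference called for RPA2 but not for POLD2). The next highest shares there were 94.9% for RPA1, 88.3% for TYMS, 85.1% for GINS3, 79.0% for RFC2 and 76.8% for CDT1, which in shIL1R cells lay near the median at 57.1%. The lowest shares were 2.75% for ORC5, 36.2% for GINS4, 37.6% for ORC4, 38.1% for RRM2, 40.4% for CDC45 and 41.4% for RFC3. Between days 4 and 10 the log2 fold changes in shScr cells were −3.02 for RRM2, −2.86 for TK1 and −2.90 for POLE2. TYMS had one of −0.32, a call lost without 10 of the 12 single libraries (limma adjusted p up to 0.206).

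**Figure D3:**
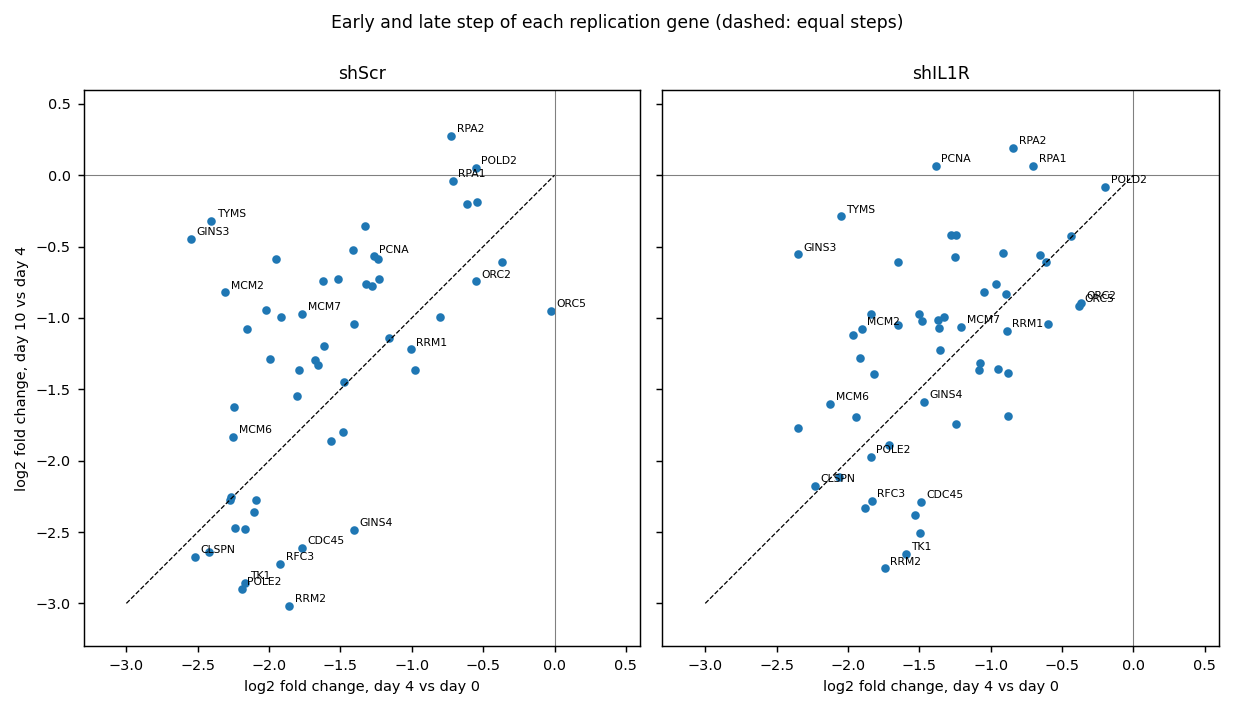
For each replication gene the x axis gives the log2 fold change from day 0 to day 4 and the y axis that from day 4 to day 10, in shScr (left) and shIL1R cells (right). On the dashed line both steps are equal. TYMS and GINS3 at the upper left had most of their fall by day 4. RRM2, TK1 and GINS4 below the line had also fallen by day 4, but their second step was the larger on the log2 scale.

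The genotypes were compared within each day to ask whether loss of the receptor altered these genes. On day 0 none of the 55 was called different by limma, edgeR or DESeq2, where 0.0646% of all genes were called by limma, and 0 members had an unadjusted limma p below 0.05 (8.52% of all genes). On day 4 limma called 0 of 55 (0.280% of all genes), edgeR 0 and DESeq2 2. The count was 6 without either of the shIL1R libraries of day 10, where 738 and 739 genes were called in all. An unadjusted limma p below 0.05 was found for 10 members, 9 of them higher in shIL1R cells, and for 18.2% of all genes. On day 0 the median difference was −0.08 on the log2 scale, and both shIL1R libraries were lower than both shScr libraries in 21 of the 55 genes (27.9% of all genes tested) and higher in 3 (23.5%). The median difference on day 4 was 0.18 on the log2 scale. Both shIL1R libraries were higher than both shScr libraries in 30 of the 55 genes at that day (25.8% of all genes tested) and lower in 9 (27.3%). On day 10 the median difference was 0.30, with 13 genes not overlapping and higher in shIL1R cells (24.0% of all genes) and 4 lower (25.0%). The fall to day 4 differed between genotypes in 0 members by limma (0.0287% of all genes), edgeR or DESeq2, and 8 had an unadjusted limma p below 0.05 (11.0% of all genes).

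On day 10 limma called 6 of the 55 genes different between genotypes, 10.9%, close to the 9.21% of all genes tested. GMNN was higher in shIL1R cells, at 182 and 230.3 normalized counts against 119 and 129 (log2 difference 0.72 ± 0.13, limma adjusted p = 0.00804). GINS4 was higher at 101 and 132 against 72.0 and 65.8 (0.74 ± 0.15), and POLE2 at 13.2 and 26.0 against 8.26 and 8.10 (1.09 ± 0.29). MCM7 (0.37 ± 0.10) and LIG1 (0.40 ± 0.10) were also higher. ORC3 was lower, at 433 and 398 against 549 and 641 (−0.51 ± 0.10). The count of 6 was not stable, since it was 0 without replicate 2 of shScr on day 10, 1 without replicate 2 of shIL1R and 33 without replicate 1 of shIL1R, where 3521 genes were called in all. GMNN alone kept its call without replicate 2 of shIL1R (0.55, limma adjusted p = 0.0304), and lost it without replicate 2 of shScr (limma adjusted p = 0.0556). The fall from day 0 to day 10 differed between genotypes by limma for GMNN only (0.80, limma adjusted p = 0.0429, 2.41% of all genes called), at −3.28 ± 0.13 in shScr and −2.48 ± 0.13 in shIL1R cells. That call was lost without any single library other than replicate 1 of shIL1R on day 10 (limma adjusted p up to 0.191). Without that library 32 members were called, of 2123 genes in all.

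The libraries of shIL1R on day 10 differed from each other in these genes. Replicate 2 of shIL1R was the highest of the 4 day 10 libraries for 40 of the 55 genes, 72.7%, and for 33.3% of all genes tested. Within the shIL1R group replicate 2 was higher than replicate 1 in 44 of 55 genes, with a median ratio of 1.45. The ratio was larger for genes that shScr cells had lost most, with a median of 2.44 over the 19 genes with the lowest share left in shScr cells, 1.33 over the middle 18 and 1.07 over the other 18. MCM10 had the largest ratio, 4.82. Replicate 1 of shIL1R stood at a median of 0.988 times the shScr mean over the 55 genes, and replicate 2 at 1.40 times. In the same libraries MKI67, a marker of cycling cells, stood at 229 and 849 normalized counts in replicates 1 and 2, CDKN1A, which encodes the CDK inhibitor p21, at 65270.0 and 37469.9, and HRAS at 37518 and 25280.1. The fibroblast collagen COL1A1 stood at 65668 and 159731. Their part in the result was not tested. IL1R1 stood at 295 and 279.9 in those libraries and did not separate them. On each day HRAS was lower in both shIL1R libraries than in both shScr libraries. In shScr cells it stood at 43044 and 43386 on day 0, 29774 and 23750 on day 4 and 51791 and 50789 on day 10. The shIL1R values were 41321 and 41405 on day 0 and 19278 and 15523 on day 4. Whether HRAS bears on the differences between genotypes was not tested.

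**Figure D4:**
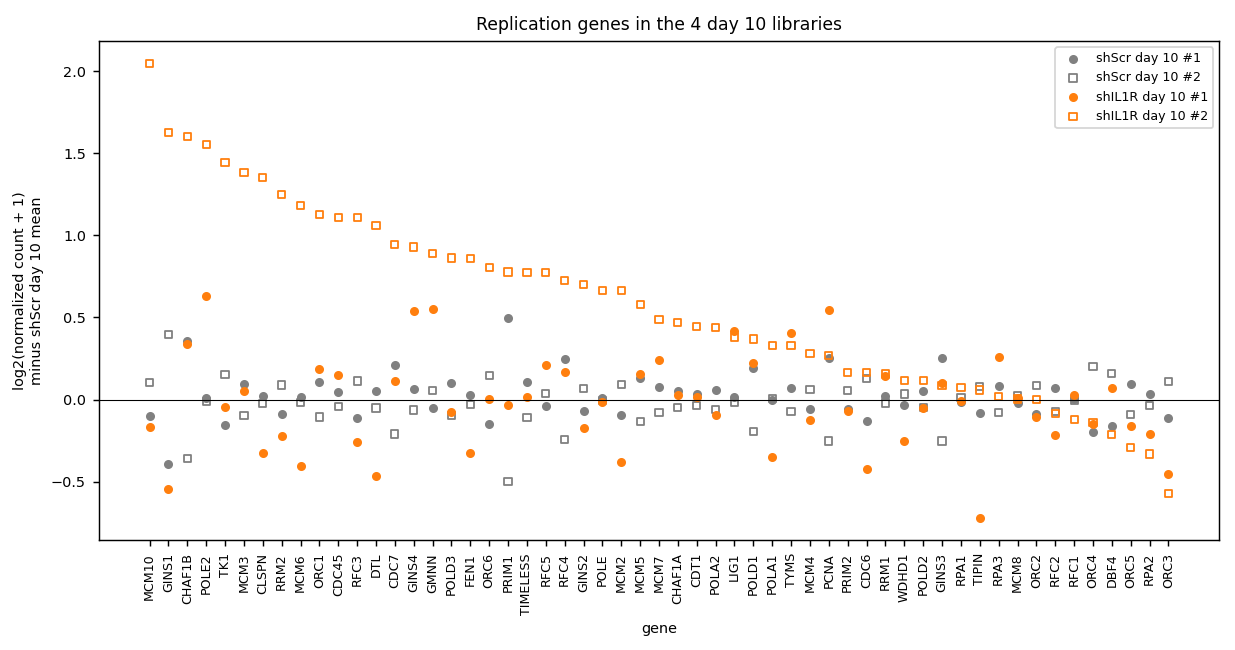
Points give log2(normalized count + 1) of each replication gene in the 4 day 10 libraries, minus the shScr day 10 mean, with genes ordered by replicate 2 of shIL1R. Open orange squares (shIL1R #2) lie above the other 3 libraries for 40 of 55 genes, while filled orange circles (shIL1R #1) mix with the grey shScr points.

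A further 79 symbols of replication, listed for comparison, gave 73 genes in the table, all tested. They moved in both directions. In shScr cells 50 were called lower and 8 higher on day 4 (18.9% and 19.4% of all genes), with a median log2 fold change of −0.86. On day 10 it was 55 and 9 (31.3% and 32.5%), with a median of −1.39. In shIL1R cells the counts were 49 and 8 on day 4 (20.3% and 20.1%) and 53 and 7 on day 10 (30.3% and 30.0%). The largest falls in shScr cells on day 4 were those of CCNE2, a cyclin of S-phase entry (−2.52), ESCO2, which acetylates cohesin (−2.37), the histone chaperone ASF1B (−2.37) and the phosphatase CDC25A (−2.27). On day 10 ESCO2 (−5.50 ± 0.50) and the topoisomerase TOP2A (−5.24 ± 0.28) led, followed by ASF1B (−4.98) and UHRF1 (−4.03), which recruits the maintenance DNA methyltransferase. ESCO2 stood at −4.58 without replicate 1 of shScr on day 10 and at −6.41 without replicate 2. With shIL1R the deepest on day 4 were CCNE2 (−2.88), ESCO2 (−2.31), CDC25A (−2.06) and ASF1B (−2.05). On day 10 they were ESCO2 (−4.61), TOP2A (−4.52), CCNE2 (−4.09) and ASF1B (−3.85). Without replicate 1 of shIL1R on day 10, TOP2A stood at −3.91, CCNE2 at −3.43 and ASF1B at −2.98, and without replicate 2 at −5.13, −4.76 and −4.72.

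Some of these other genes rose while members with related roles fell. RRM2B, the p53-induced small subunit of ribonucleotide reductase, stood at 1117 and 1108 normalized counts on day 0, 2837 and 2868 on day 4 and 3934 and 4299 on day 10 in shScr cells and at 1079 and 1251, 1889 and 1539, and 3026 and 2187 in shIL1R cells. Its log2 fold change on day 10 was 1.89 ± 0.15 (limma adjusted p = 9.51e-07) and 1.15 ± 0.15. POLD4, the small subunit of polymerase delta, went from 939 and 993 to 2433 and 2224 in shScr cells (1.27 ± 0.08) and from 912 and 948 to 2663 and 2554 in shIL1R cells (1.49 ± 0.08). TK2, the mitochondrial thymidine kinase, was called higher on day 10, by 0.77 in shScr and 0.78 in shIL1R cells. Also called higher in shScr cells on day 10 were CTC1 (0.96), CCNE1 (0.97), ESCO1 (0.67), TOP1 (0.28), LRWD1 (0.28) and DDB1 (0.27). The last 3 calls were lost when a single library was left out, among others replicate 1 of shScr on day 10 for LRWD1 (limma adjusted p = 0.119), replicate 2 for DDB1 (limma adjusted p = 0.0516) and either for TOP1 (limma adjusted p = 0.0722 and 0.21). In shIL1R cells CTC1 (0.71), LRWD1 (0.51), OBFC1 (0.51) and DDB1 (0.23) were also called higher on day 10, DDB1 not without replicate 1 of that day (limma adjusted p = 0.0756) or without either day 0 library.

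On day 4 the genes called higher were RRM2B (1.36 in shScr, 0.55 in shIL1R cells), POLD4 (1.03, 1.08), ESCO1 (0.53, 0.67), CTC1 (0.52, 0.72), OBFC1 (0.49, 0.72), LRWD1 (0.34, 0.50) and TOP1 (0.55, 0.37) in both genotypes. CUL4B (0.31) was called in shScr and NME1 (0.49) in shIL1R cells. Without replicate 1 of the day 4 group the calls of ESCO1, LRWD1 and CUL4B in shScr cells were lost (limma adjusted p = 0.0693, 0.108 and 0.196), as were those of RRM2B, NME1 and TOP1 in shIL1R cells (limma adjusted p = 0.101, 0.059 and 0.0836). CTC1 and OBFC1 belong to the CST complex, which helps polymerase alpha at telomeres, and LRWD1 binds the origin recognition complex.

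**Figure D5:**
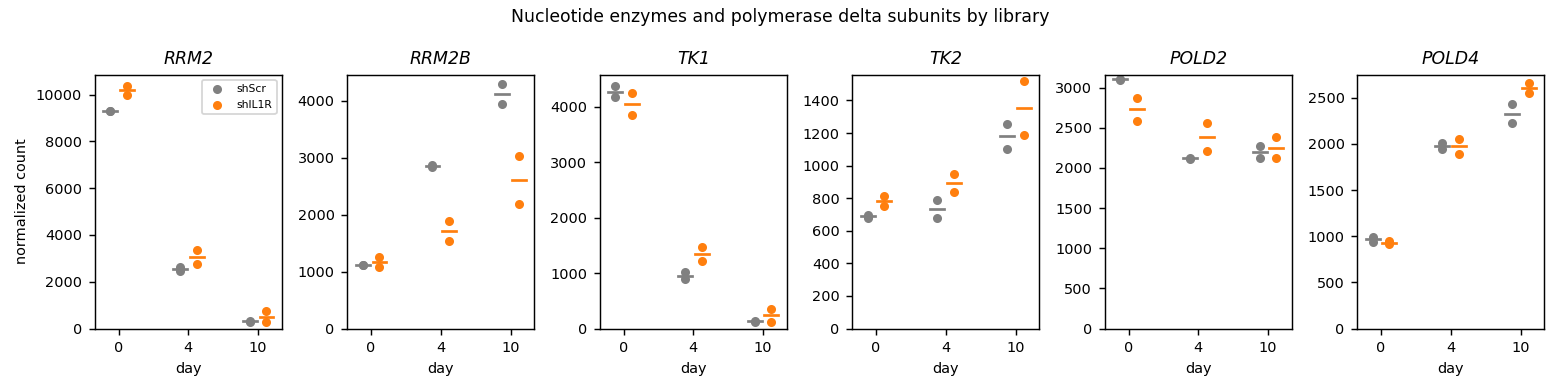
Normalized counts by day for 3 pairs of genes with related roles, with a point for each library and a line at the mean of 2, in shScr (grey) and shIL1R cells (orange). POLD2 and POLD4 are different subunits of polymerase delta. RRM2, TK1 and POLD2 were lower after day 0, while RRM2B, TK2 and POLD4 were highest on day 10.

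Between genotypes on day 10, 7 of the 73 differed by limma, again near the 9.21% of all genes. CCNE1, a cyclin of the G1/S transition (−0.91 ± 0.16), RRM2B (−0.68 ± 0.15) and RIF1, a regulator of origin timing (−0.59 ± 0.16), were lower in shIL1R cells. RNASEH2A, which removes RNA from DNA (0.79 ± 0.18), PRIMPOL, a primase that restarts forks (0.69 ± 0.15), the kinase CDK2 (0.64 ± 0.17) and the histone chaperone NASP (0.39 ± 0.10) were higher. All 7 calls were lost without replicate 2 of shScr on day 10 (limma adjusted p = 0.0755 to 0.374).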

How the data were processed

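The authors sequenced poly(A) RNA of 12 libraries, in 6 groups of 2. The table they deposited gives a signal per gene, the read count scaled by a factor for its library (normalized count). TopHat, HTSeq, DESeq2 and the build hg19 are named in the submitters' processing notes. Versions, the annotation and the strand setting are not given in the sources used here. The smallest value above 0 in a library was taken as 1 read, and 100% of values were then whole within 0.001.

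Genes with at least 10 in at least 2 libraries were tested, 13924 of 27106. The test was limma (version 3.58.1, R 4.3.3) on log2(value + 1), with 6 group means over all 12 libraries, eBayes with trend, and two-sided p-values adjusted after Benjamini and Hochberg over all genes tested in each of 11 comparisons. The spread of a gene was estimated over all 12 libraries together, so a gene has the same SE in both genotypes. Leaving out a library can thus change a call in a comparison that it is not part of. A fold change on that scale understates the change of low genes. Alternatives were pseudocounts of 0.5 and 5, no filter, a filter at 50, TMM scaling, a replicate block, the compared groups alone, count tests of the recovered reads (edgeR 4.0.16, DESeq2 1.42.0), and each library left out. The fit was tested on simulated data.

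All 55 members are named. Of 73 other replication genes those with the largest called changes in each direction, up to 4, and those against the main direction are named. The members and lists were chosen with earlier results of these data known.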

Additional observations from a re-analysis of the deposited data

Results flagged for a closer look

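GMNN, which encodes the CDT1 inhibitor geminin, is listed because its change from day 0 to day 10 differed between the genotypes by 0.80 on the log2 scale in the test of that difference itself, with a smaller fall in shIL1R than in shScr cells. All 4 day 10 libraries kept GMNN below its day 0 values. GMNN was the only replication gene called for this difference in the fall, 1.82% of them against 2.41% of all genes tested. The call was lost in 11 of the 12 fits that left out a single library. Over those 12 fits the difference ran from 0.63 to 0.97. The call was also lost without the filter, with a replicate block within genotype and with the compared groups alone.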

How the results depend on the processing

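Counts of replication genes called between days held within 1.5 times under every alternative run, from 52 to 54 for shScr on day 4, 55 throughout for shScr on day 10, 51 to 54 and 54 to 55 for shIL1R on those days, and 33 to 51 between days 4 and 10, the 33 in shIL1R with the compared groups alone. Counts between genotypes did not hold. On day 4 the count of 0 became 2 with DESeq2 and ran from 0 to 6 with a library left out (6 without either shIL1R day 10 library). On day 10 the count of 6 became 0 with a replicate block within genotype, 0 with the compared groups alone, and ran from 0 to 33 with a library left out. The day 10 difference between genotypes in the fall (1 gene) became 0 without the filter, 0 with the block within genotype, 0 with the groups alone, 2 with DESeq2, and ran from 0 to 32 with a library left out. The cause was not tested. With a replicate block over all libraries the day 10 genotype count was 5. Same-numbered libraries deviated together weakly (correlations from −0.10 to 0.23 over all pairs of groups). Within shIL1R the correlation was 0.23 for days 0 and 4, 0.20 for days 4 and 10 and 0.05 for days 0 and 10. Within shScr the values were −0.05, −0.10 and 0.13, and between genotypes they reached 0.19. The main fit did not take the numbers to pair samples, and these values cannot decide whether they do so within a genotype. With a library left out, the small differences between days 4 and 10 crossed 0 for RPA1 in shScr cells (−0.0805 to 0.0037) and in shIL1R cells for POLD2 (−0.19 to 0.0212) and PCNA (−0.15 to 0.28). Over all genes, calls between genotypes also varied over the alternatives other than leaving out a library. Those on day 0 (9) ran from 2 to 138, those on day 4 (39) from 1 to 476 and those on day 10 (1283) from 73 to 1661. Those of the difference in the fall ran from 0 to 101 on day 4 (4) and from 156 to 802 on day 10 (336). Between days 4 and 10 in shIL1R cells 5000 genes became 1901 with the compared groups alone. The lowest member values were 8.10 (POLE2) and 10.1 (PRIM1) normalized counts in a library, where depth limits the fold change most.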
